A study of Rattus norvegicus with 15 samples.

Results

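A set of 9 genes that mark macrophages and monocytes was followed in rat hearts during severe acute pancreatitis (SAP). They were Csf1r, Fcer1g, Tyrobp, Cd14, Cd163, Mrc1, Cd68, Lyz2 and Aif1, taken as every row of the array table whose platform symbol is 1 of these names. All 9 were found, each with 1 probe set, among 15037 gene symbols on 23188 probe sets. RNA came from the hearts of male SD rats aged 8 to 10 weeks, in 3 groups of 5 arrays. In the SAP 24 h group and the SAP 12 h group, 5% sodium taurocholate, a bile salt, had been driven backwards into the ducts of the pancreas and bile 24 h and 12 h before the heart was taken. The sham group had sham surgery. How long after surgery the sham hearts were taken and the hour of day are not stated. Each array was labelled as a separate rat of its group.

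Macrophages are phagocytes that live in the heart between the muscle cells, and monocytes are their blood-borne relatives, which enter inflamed tissue and can turn into macrophages there. The growth factor CSF1, acting on its receptor (Csf1r), keeps both cell types alive. Both sense microbial and damage signals through surface receptors such as CD14. Both also carry other receptors that signal through small adaptor proteins with an activation motif called ITAM (Fcer1g and Tyrobp). They take up cell debris and haemoglobin through scavenger receptors (Cd163, Mrc1) and digest cargo in lysosomes (Cd68, Lyz2). Several are not restricted to macrophages: Fcer1g, Tyrobp, Cd14 and Lyz2 are also active in neutrophils, and Fcer1g in mast cells.

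Because many myeloid promoters carry a purine-rich site for the ETS factor PU.1, the stretches ahead of these genes' starts were examined. A RefSeq window (rat build GRCr8) was at hand for 6 of the 9 genes: Cd163, Lyz2, Cd68, Mrc1, Cd14 and Csf1r. The motif GAGGAA, the core of PU.1-type sites, was searched on both strands (TTCCTC on the other) in the 250 bases before the start that RefSeq's window uses. It occurred in 5 of the 6, all but Cd163, and in 23.3% of all 33469 windows. That start lay inside the gene's outermost 5′ end by 251 bases in Cd14, 227 in Csf1r, 49 in Lyz2 and 23 in Cd163. In the bases ahead of the outermost end, 2 of the 6, Cd68 and Mrc1, held a match, and the matches of Cd14, Csf1r and Lyz2 lay within the gene. Cd14 had no such bases in its window and Csf1r had 23. The share over all genes was not counted for such shortened stretches. The longer form GAGGAAGT, which contains the first motif, occurred in 0 of the 6 and in 2.0% of all windows. TGACTCA, the AP-1 site, occurred in Cd68 alone of the 6 and in 4.0% of all windows. TATAAA, the TATA box, occurred in 0 of the 6 and in 12.9% of all windows. The bases ahead of the outermost end of Cd68, at chr10:54882442-54882691 on the minus strand, of Mrc1, at chr17:82157475-82157724 on the plus strand, and of Cd163, at chr4:158770524-158770750 on the plus strand, are shown 5′ to 3′ to let the matched and the unmatched stretches be compared. Capitals mark GAGGAA or TTCCTC, and the matches are letters in a window, not measured binding.
Cd68: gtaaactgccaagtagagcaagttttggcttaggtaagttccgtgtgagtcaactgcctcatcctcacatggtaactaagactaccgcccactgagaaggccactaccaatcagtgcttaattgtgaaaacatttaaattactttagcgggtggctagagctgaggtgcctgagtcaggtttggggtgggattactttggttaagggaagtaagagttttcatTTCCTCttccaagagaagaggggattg
Mrc1: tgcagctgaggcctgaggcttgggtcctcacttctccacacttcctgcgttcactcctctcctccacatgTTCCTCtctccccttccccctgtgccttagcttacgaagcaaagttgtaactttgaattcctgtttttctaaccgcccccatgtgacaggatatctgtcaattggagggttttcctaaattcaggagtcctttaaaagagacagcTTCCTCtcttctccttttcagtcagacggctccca
Cd163: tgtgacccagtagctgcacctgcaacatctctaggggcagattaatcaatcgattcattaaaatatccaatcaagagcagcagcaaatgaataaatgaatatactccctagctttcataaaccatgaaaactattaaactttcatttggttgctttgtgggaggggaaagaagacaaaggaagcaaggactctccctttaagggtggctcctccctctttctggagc
Cd68 held 1 match and Mrc1 held 2 in 250 bases, all in the TTCCTC orientation, and Cd163 held 0 in 227 bases.

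All values are log2 expression as deposited, and differences are between group means, so a difference of 1 is a doubling. Array medians lay between 5.9 and 5.98, and any pair of arrays correlated at 0.984 or above over all probe sets. Genes of heart muscle were high in every heart: the mean of 9 cardiomyocyte genes lay between 18.2 and 18.4 at 24 h, 18.2 and 18.5 at 12 h and 18.1 and 18.5 in sham. Atrial genes varied. In 4 arrays, SAP 12 h replicates 3 and 4 and sham replicates 2 and 3, both Myl4 (atrial myosin light chain) and Sln (sarcolipin) exceeded 12, so these samples held much more atrial RNA than the other 11. No array at 24 h was of that kind. The other 11 were not alike either. The mean of 6 atrial genes ran from 6.79 to 7.66 at 24 h, and the lowest sham heart was at 8.20. Leaving out the 4 atrium-rich arrays therefore did not balance atrial RNA between 24 h and sham. Where a call ended without these 4 arrays, this is said beside it. As a guide to background, 14 genes of pancreatic acinar cells, which a heart does not use, had mean levels from 3.63 to 7.13 with a median of 4.48. The sham means of Cd14, Cd68 and Aif1 fell inside that range. The guide was not wholly flat between groups. By limma over all probe sets, 1 of the 14, Ctrb1, rose at 24 h against sham, by 0.77 (adjusted p = 0.0253). At 12 h against sham 0 of the 14 were called. In whole-heart RNA a change in the number of macrophages and a change in RNA per cell cannot be told apart.

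All 9 genes had their highest group mean at 12 h, Lyz2 by a margin of only 0.01 over 24 h. The sign of the difference between the times turned in 7 of 25 alternative settings for Lyz2 and in 2 for Csf1r. Against sham, 2 of the 9 rose at 12 h, Cd14 and Fcer1g, and none fell, by limma fitted over all probe sets with Benjamini-Hochberg adjusted p under 0.05. Over the whole array 2.35% of probe sets rose and 2.57% fell in that comparison. The median difference of the 9 genes was 0.56, against 0.01 for all probe sets, and all 9 were positive. The 9 genes were chosen with earlier results of these data known, so counts and medians only describe them. At 24 h against sham 0 of the 9 rose and 0 fell, where 1.23% of all probe sets rose and 2.14% fell; 1 of the 9, Lyz2, had an unadjusted p under 0.05. The median difference at 24 h was 0.06, against 0.02 for all probe sets. Between the times, Cd14 and Cd68 were lower at 24 h than at 12 h, which is 2 of 9 where 0.569% of all probe sets fell and 0.121% rose. The median of the 9 differences was -0.56, against 0.02 for all probe sets, and 0 of the 9 were positive. Both comparisons with SAP 12 h contain the same 5 arrays, so a high 12 h value enters both.

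**Figure D1:**
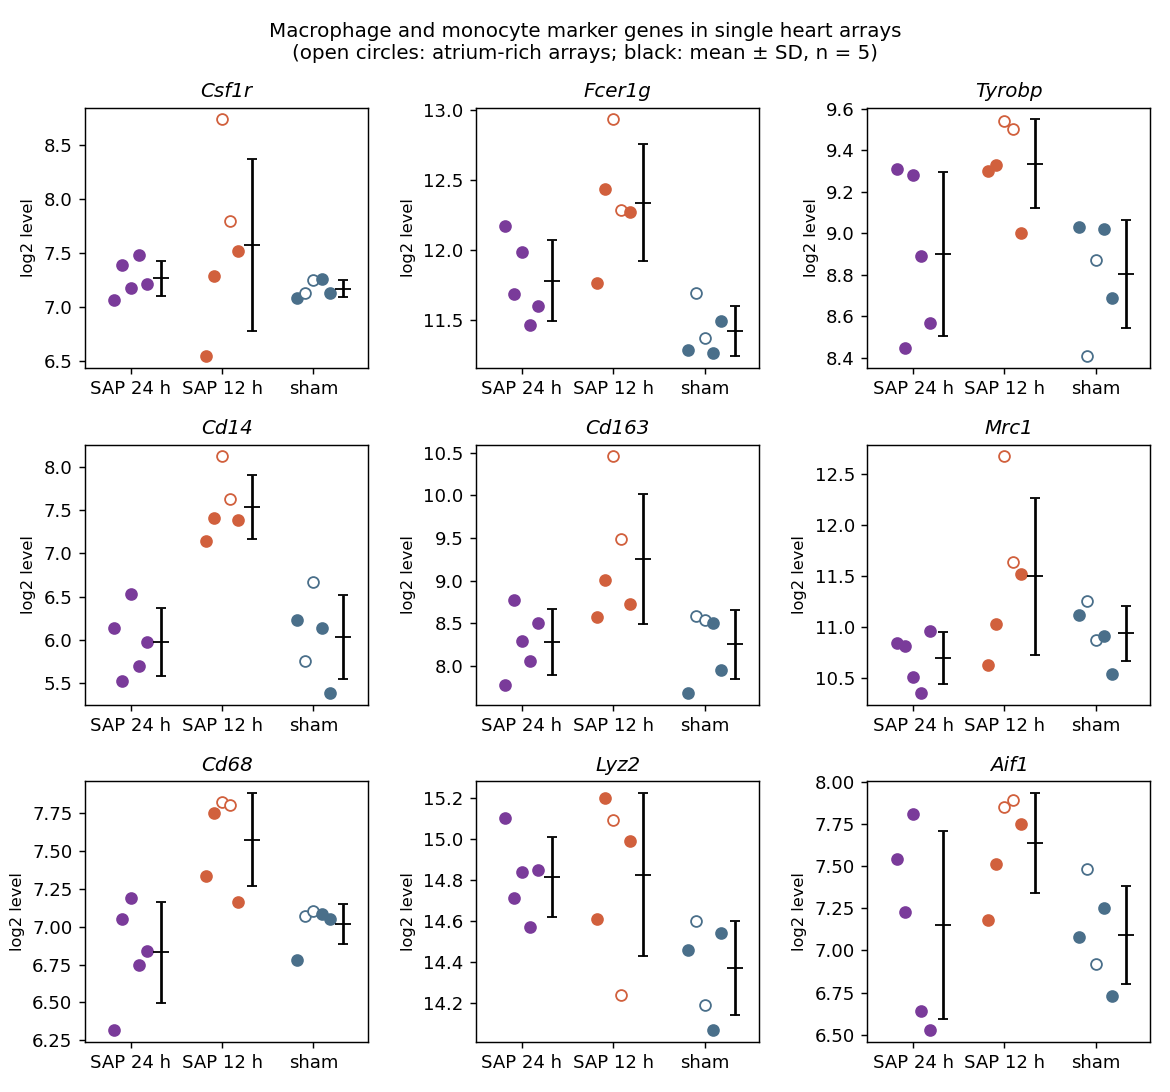
Log2 expression (vertical axes) of the 9 genes in each heart, 1 panel per gene, with the SAP 24 h, SAP 12 h and sham groups from left to right; points are arrays, bars the group mean with its SD (n = 5), and open points the 4 arrays rich in atrial RNA. Cd14 at 12 h (7.14 to 8.12) lies above every array of both other groups, while Lyz2 overlaps between 24 h and 12 h.

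CD14 is the surface protein that hands bacterial lipopolysaccharide to the Toll-like receptor TLR4. It showed the widest separation of the 9. Cd14 read 6.14, 5.53, 6.53, 5.70 and 5.98 in replicates 1 to 5 at 24 h, 7.14, 7.41, 8.12, 7.63 and 7.38 at 12 h, and 6.23, 5.76, 6.67, 6.14 and 5.39 in sham. Every 12 h heart was above every sham heart and every 24 h heart, and the 24 h and sham hearts overlapped almost wholly. The 12 h mean of 7.54 ± 0.37 exceeded the sham mean of 6.04 ± 0.49 (SD, n = 5 each) by 1.50 (standard error 0.23, 95% interval 1.01 to 1.98, adjusted p = 0.000771), which is 2.82-fold. Non-overlap in that direction was found for 2.34% of all probe sets. The 24 h mean of 5.98 ± 0.39 was 1.56 below the 12 h mean (95% interval -2.05 to -1.07, adjusted p = 0.00306), a 2.95-fold difference. Non-overlap downward between the times was found for 1.59% of all probe sets. Against sham, the 24 h difference was -0.06 (95% interval -0.55 to 0.42, adjusted p = 0.937). Without the 4 atrium-rich arrays the 12 h difference from sham was 1.39 (adjusted p = 0.00999), and over 25 alternatives the adjusted p lay between 0.000256 and 0.00999.

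Of other genes of the lipopolysaccharide pathway, 18 of the CD14 and Toll-like receptor list were measured. At 12 h against sham 2 of the 18 rose and none fell, where 2.35% of all probe sets rose and 2.57% fell. The list median was 0.25, against 0.01 for all probe sets, and 16 of the 18 were positive. Lbp, which encodes the serum protein that loads lipopolysaccharide onto CD14, rose by 2.06 (adjusted p = 0.000254). It read 6.18, 5.98, 6.97, 5.86 and 6.99 at 24 h, 8.04, 8.45, 9.41, 8.22 and 7.99 at 12 h, and 5.73, 6.38, 6.82, 6.42 and 6.45 in sham. As with Cd14, every 12 h heart was above all others. Irak3, an inhibitor of Toll-like receptor signalling, rose by 1.30 (adjusted p = 0.00479) with overlap between the groups. The receptor Tlr4 itself differed by 0.11 (95% interval -0.26 to 0.49) and its partner Ly96 (MD-2) by 0.13 (95% interval -0.24 to 0.50). The cytokine genes downstream did not pass the test either: the 12 h difference from sham was 0.08 for Tnf, 0.51 for Il1b (adjusted p = 0.135) and -0.08 for Il6. At 24 h against sham 0 of the 18 were called, with a median of 0.18. At 24 h against 12 h Lbp alone of the list fell, by 2.03 (adjusted p = 0.00171).

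Fcer1g encodes the common gamma chain, an ITAM adaptor that activating Fc receptors need for surface expression and signalling. Fcer1g read 12.17, 11.68, 11.98, 11.46 and 11.60 at 24 h, 11.76, 12.43, 12.93, 12.28 and 12.27 at 12 h, and 11.28, 11.69, 11.37, 11.26 and 11.49 in sham. All 12 h hearts lay above all sham hearts, the lowest of them at 11.76 against a top sham value of 11.69, and the 24 h hearts bridged both. At 12 h it was 0.92 above sham (12.33 ± 0.42 and 11.42 ± 0.18, SD, n = 5 each; 95% interval 0.53 to 1.30, adjusted p = 0.00527), or 1.89-fold. At 24 h it was 0.36 above sham (95% interval -0.02 to 0.74, adjusted p = 0.338) and 0.56 below 12 h (95% interval -0.94 to -0.17, adjusted p = 0.171). Without the 4 atrium-rich arrays the 12 h difference was 0.81 and no longer called (adjusted p = 0.0576), and over 25 alternatives the adjusted p lay between 0.00166 and 0.0576.

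Tyrobp encodes DAP12, the adaptor of TREM receptors. Tyrobp read 9.31, 8.45, 9.28, 8.89 and 8.57 at 24 h, 9.30, 9.33, 9.54, 9.50 and 9.0 at 12 h, and 9.03, 8.41, 8.87, 9.02 and 8.69 in sham. The 12 h hearts were tightly grouped at the top, with 1 of them, at 9.0, inside the sham range. The 12 h difference from sham was 0.53 (95% interval 0.16 to 0.90, adjusted p = 0.104), and the 24 h difference was 0.10 (95% interval -0.27 to 0.47, adjusted p = 0.851). At 24 h Tyrobp was 0.43 below 12 h (95% interval -0.80 to -0.06, adjusted p = 0.286). None of these 3 differences passed the test.

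Among 21 other measured genes of ITAM signalling and Fc receptors, 4 rose at 12 h against sham and none fell. The shares of all probe sets were 2.35% and 2.57%, and the list median was 0.22. All of these 4 are receptors, not kinases. Fcgr2b, the inhibitory IgG receptor, rose by 1.22 (adjusted p = 0.00552) and Fcgr2a, an activating IgG receptor, by 1.34 (adjusted p = 0.00874). Fcgr1a, the high-affinity IgG receptor that pairs with Fcer1g, rose by 0.79 (adjusted p = 0.0132). Trem1, a receptor of monocytes and neutrophils that pairs with DAP12, rose by 0.87 (adjusted p = 0.0231). Fcgr2a read 10.36, 10.59, 10.76, 10.47 and 10.92 at 24 h, 11.50, 11.30, 13.31, 11.60 and 11.63 at 12 h, and 10.21, 10.93, 10.89, 10.39 and 10.23 in sham. Its 12 h hearts lay above all others, with replicate 3 far above the rest. The kinase Syk differed by -0.06 (95% interval -0.34 to 0.22) and the DAP12 partner Trem2 by 0.31 (adjusted p = 0.294). At 24 h against sham 0 of the 21 were called. At 24 h against 12 h Fcgr2b fell by 1.15 (adjusted p = 0.0334) and Trem1 fell by 0.99 (adjusted p = 0.0357), 2 of 21 where 0.569% of all probe sets fell. Without the atrium-rich arrays that last count was 3, Fcgr2a (-0.86) included, and with the atrial covariate 0, where Fcgr2b differed by -1.06 and Trem1 by -1.07. Fcgr1a at 12 h was 0.73 and no longer called without the atrium-rich arrays (adjusted p = 0.182).

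Cd163 encodes the receptor through which macrophages clear haemoglobin bound to haptoglobin. Cd163 read 7.77, 8.77, 8.29, 8.06 and 8.50 at 24 h, 8.57, 9.01, 10.46, 9.49 and 8.72 at 12 h, and 7.68, 8.58, 8.54, 8.50 and 7.95 in sham. SAP 12 h replicates 3 and 4, both rich in atrial RNA, were the highest of all, and 1 of the 12 h hearts was just below the top sham heart. The 12 h difference from sham was 1.00, or 2.00-fold (9.25 ± 0.76 and 8.25 ± 0.41, SD, n = 5 each; 95% interval 0.38 to 1.62), and did not pass the test (adjusted p = 0.0587). The difference passed in 5 of 25 alternatives. With the mean of 6 atrial genes as a covariate the adjusted p was 0.00763. Without SAP 12 h replicate 1 it was 0.0330, and without replicate 5 it was 0.0448. The remaining passes were with the replicate number as a block and without the lowest 25% of probe sets. Across the 25 alternatives the adjusted p lay between 0.00763 and 0.181. The 24 h difference from sham was 0.03 (95% interval -0.59 to 0.65, adjusted p = 0.980), and the 24 h minus 12 h difference was -0.97 (95% interval -1.59 to -0.35, adjusted p = 0.141).

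Mrc1 encodes the mannose receptor CD206, an endocytic lectin of tissue macrophages. Mrc1 read 10.84, 10.81, 10.51, 10.35 and 10.96 at 24 h, 10.62, 11.03, 12.67, 11.63 and 11.52 at 12 h, and 11.11, 11.25, 10.87, 10.91 and 10.54 in sham. The 12 h range overlapped both others, and replicate 3 stood well above every other heart. The 12 h difference from sham was 0.56 (95% interval -0.005 to 1.12, adjusted p = 0.318), and without the 4 atrium-rich arrays it was 0.20. The 24 h difference from sham was -0.24 (95% interval -0.80 to 0.32, adjusted p = 0.721). The 24 h minus 12 h difference was -0.80 (95% interval -1.36 to -0.24, adjusted p = 0.183).

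Of 12 genes that handle haemoglobin and iron, 2 rose at 24 h against sham and 3 at 12 h, with medians of 0.22 and 0.36. The shares of all probe sets that rose were 1.23% and 2.35%. Lrp1, the receptor for haem bound to haemopexin, rose at 12 h by 1.57 (adjusted p = 0.00519). Ftl1, the ferritin light chain that stores iron, was higher by 0.82 at 24 h (adjusted p = 0.0181) and by 0.87 at 12 h (adjusted p = 0.00792). Slc40a1, the iron exporter ferroportin, was higher by 1.02 at 24 h (adjusted p = 0.0110) and by 0.88 at 12 h (adjusted p = 0.0186). Neither Ftl1 nor Slc40a1 passed the test between the times, with differences of -0.05 and 0.14 at 24 h minus 12 h. Hmox1, haem oxygenase, differed by 0.91 at 12 h (95% interval -0.47 to 2.28, adjusted p = 0.575), with 1 heart at 12.96 and the others between 8.24 and 10.22. Without the atrium-rich arrays the counts were 0 at 24 h, where Slc40a1 differed by 0.91 and Ftl1 by 0.70, and 1 at 12 h, where Slc40a1 differed by 0.71 and Ftl1 by 0.79. Ftl1 and Slc40a1 are also made by many cells other than macrophages.

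Cd68 encodes a heavily glycosylated protein of macrophage lysosomes. Cd68 read 6.32, 7.05, 7.19, 6.75 and 6.84 at 24 h, 7.33, 7.75, 7.82, 7.80 and 7.16 at 12 h, and 6.78, 7.07, 7.10, 7.08 and 7.05 in sham. Every 12 h heart was above every sham heart, while the lowest 12 h heart, at 7.16, was just under the top 24 h heart, at 7.19. At 24 h Cd68 was 0.74 below 12 h (6.83 ± 0.33 and 7.57 ± 0.31, SD, n = 5 each; 95% interval -1.09 to -0.40, adjusted p = 0.0408), or 1.67-fold. That call was lost in 17 of 25 alternatives, 11 of them the removal of 1 array, with adjusted p between 0.0189 and 0.282 over the 25, the highest of them without the atrium-rich arrays. The 12 h difference from sham of 0.56 did not pass the test (95% interval 0.21 to 0.90, adjusted p = 0.0600). It passed in 4 of 25 alternatives: without SAP 12 h replicate 5 (0.0284) or SAP 24 h replicate 1 (0.0335), with the atrial covariate (0.0403) and with the replicate number as a block (0.0261). The 24 h difference from sham was -0.19 (95% interval -0.53 to 0.16, adjusted p = 0.634).

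Lyz2 encodes lysozyme, the enzyme that breaks bacterial cell walls, and differed from the other 8 in its course. Lyz2 read 15.10, 14.71, 14.84, 14.57 and 14.85 at 24 h, 14.61, 15.20, 15.09, 14.24 and 14.99 at 12 h, and 14.46, 14.60, 14.19, 14.07 and 14.54 in sham. Both SAP groups sat at the same mean, 14.81 ± 0.20 at 24 h and 14.83 ± 0.40 at 12 h, above 14.37 ± 0.23 in sham (SD, n = 5 each), with some overlap. The difference from sham was 0.44 at 24 h (95% interval 0.08 to 0.80, adjusted p = 0.181) and 0.45 at 12 h (95% interval 0.10 to 0.81, adjusted p = 0.167), and neither passed the test, although the 12 h one did without SAP 12 h replicate 4 (0.60, adjusted p = 0.0296). Between the times the Lyz2 difference was -0.01 (95% interval -0.37 to 0.35), and -0.16 without SAP 12 h replicate 4.

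Of 21 other measured genes of the lysosome and phagocytosis, 1 rose at 24 h against sham, 1 rose and 1 fell at 12 h, and none was called between the times. Of all probe sets, 1.23% rose at 24 h, and 2.35% rose and 2.57% fell at 12 h. Single calls among 21 genes describe those genes and not the list. The medians were 0.03 at 24 h, 0.15 at 12 h and -0.19 between the times. The gene that rose was Ctsl, the lysosomal protease cathepsin L, by 0.96 at 24 h (adjusted p = 0.0213) and by 1.36 at 12 h (adjusted p = 0.00109). The gene that fell was Gas6, a bridging ligand that tags dying cells for the receptor Mertk, by 0.74 at 12 h (adjusted p = 0.00621).

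Csf1r is the receptor tyrosine kinase on which macrophages depend. Csf1r read 7.07, 7.39, 7.18, 7.48 and 7.22 at 24 h, 6.55, 7.29, 8.74, 7.80 and 7.52 at 12 h, and 7.09, 7.13, 7.25, 7.26 and 7.13 in sham. The sham hearts were tightly grouped, whereas the 12 h hearts ran from the lowest to the highest value of all 15. Csf1r passed no test: the difference from sham was 0.10 at 24 h (95% interval -0.44 to 0.64, adjusted p = 0.903) and 0.41 at 12 h (95% interval -0.13 to 0.95, adjusted p = 0.497), and the 24 h minus 12 h difference was -0.31 (95% interval -0.85 to 0.23, adjusted p = 0.660). Without the 4 atrium-rich arrays the 12 h difference from sham was -0.04, so its sign rested on them.

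The CSF1 receptor axis, 14 measured genes besides Csf1r, was close to the array as a whole, with medians of 0.05 at 24 h and 0.11 at 12 h against sham. Csf2rb, the shared beta chain of the GM-CSF, IL-3 and IL-5 receptors, rose at 12 h by 0.79 (adjusted p = 0.0173). Grb2, a broadly expressed adaptor that links receptor kinases to RAS, fell at 12 h by 0.54 (adjusted p = 0.0108). The ligand Csf1 read 5.53, 5.94, 6.37, 5.75 and 6.00 at 24 h, 6.42, 6.39, 6.91, 6.46 and 6.45 at 12 h, and 5.76, 6.02, 6.35, 5.95 and 6.12 in sham. The 12 h hearts were all above the sham hearts, the nearest pair being 6.39 and 6.35, but the difference of 0.49 did not pass the test (adjusted p = 0.0883). Spi1, which encodes PU.1, differed by 0.30 (adjusted p = 0.206). Without the atrium-rich arrays the differences were 0.80 for Csf2rb (adjusted p = 0.106) and -0.60 for Grb2 (adjusted p = 0.0618).

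Aif1 encodes IBA1, a calcium-binding protein of the macrophage cytoskeleton. Aif1 read 7.54, 7.23, 7.81, 6.64 and 6.53 at 24 h, 7.18, 7.51, 7.85, 7.89 and 7.75 at 12 h, and 7.08, 7.48, 6.92, 7.25 and 6.73 in sham. The 24 h hearts split widely, with 2 of them below every sham heart and 2 above. The 12 h difference from sham was 0.54 (95% interval 0.08 to 1.01, adjusted p = 0.215), the 24 h difference 0.06 (95% interval -0.41 to 0.53, adjusted p = 0.938) and the 24 h minus 12 h difference -0.49 (95% interval -0.95 to -0.02, adjusted p = 0.354).

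**Figure D2:**
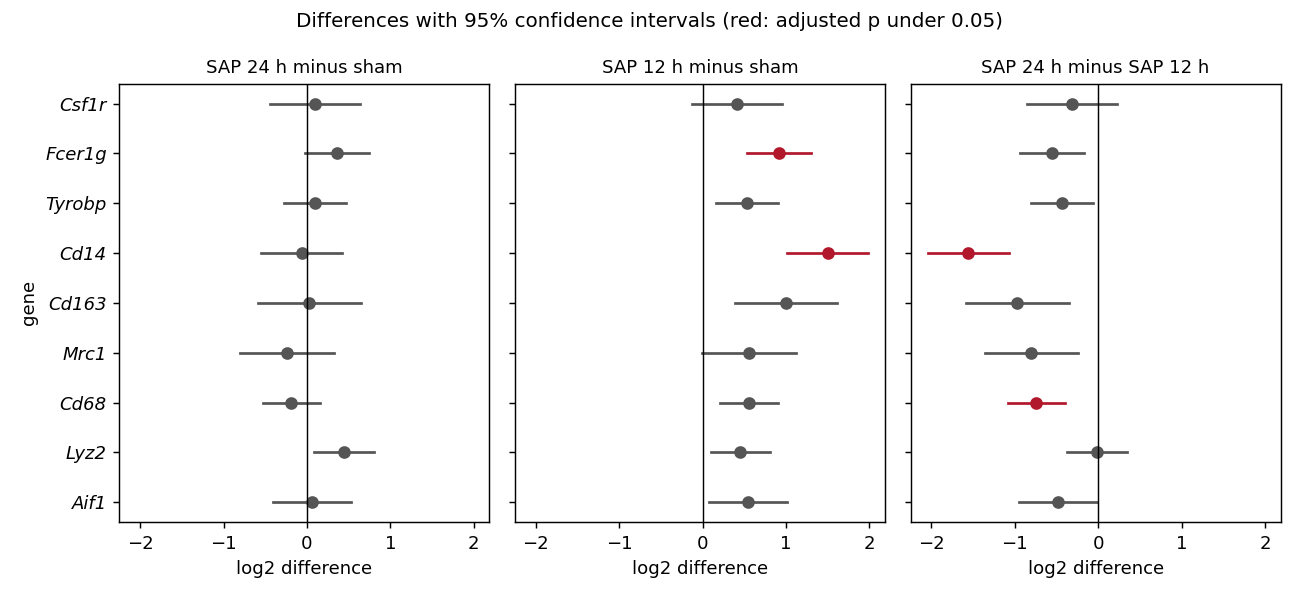
Differences in log2 expression (horizontal axis) with 95% intervals for the 9 genes in the comparisons SAP 24 h minus sham, SAP 12 h minus sham and SAP 24 h minus SAP 12 h; red points passed adjusted p under 0.05 in limma. Cd14 and Fcer1g passed at 12 h against sham, Cd14 and Cd68 at 24 h against 12 h, and none at 24 h against sham.

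Other genes used by macrophages and monocytes rose in part at 12 h, and none was called at 24 h against sham. Of 30 measured, 8 rose at 12 h against sham and none fell (25 positive, median 0.33), 0 were called at 24 h against sham (median 0.07), and 4 fell at 24 h against 12 h (median -0.21). For all probe sets, 2.35% rose at 12 h against sham and 0.569% fell at 24 h against 12 h. Msr1, the class A scavenger receptor, rose at 12 h by 1.84 (adjusted p = 4.31e-05), or 3.59-fold. It read 6.25, 6.51, 6.82, 6.30 and 6.37 at 24 h, 7.79, 7.30, 8.56, 8.23 and 7.48 at 12 h, and 6.05, 6.19, 6.14, 6.02 and 5.74 in sham. The 3 groups did not overlap, and 608 of 23188 probe sets lay wholly above sham at 24 h. Yet the 24 h difference of 0.42 from sham did not pass the test (adjusted p = 0.290). With the atrial covariate it was 0.71 and passed (adjusted p = 0.0306).

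Lgals3, galectin-3, rose at 12 h by 1.30 (adjusted p = 3.56e-05) and fell by 1.50 at 24 h against 12 h (adjusted p = 3.65e-05). It read 9.35, 9.12, 9.46, 9.25 and 8.92 at 24 h, 10.99, 10.64, 10.46, 10.88 and 10.62 at 12 h, and 9.24, 9.50, 9.48, 9.64 and 9.21 in sham. Here the atrium-rich SAP 12 h replicate 3 was the lowest of its group, not the highest. C1qb, a chain of complement C1q made by tissue macrophages, was 1.25 above sham at 12 h (adjusted p = 0.00057) and fell by 1.21 between the times (adjusted p = 0.00378). C1qc, its partner chain, was 0.56 above sham (adjusted p = 0.040) and fell by 0.80 between the times (adjusted p = 0.0165). Cd86, a co-stimulatory ligand, was 0.78 above sham at 12 h (adjusted p = 0.00297). Msr1 also fell between the times, by 1.42 (adjusted p = 0.00171). The remaining genes called at 12 h were Gpnmb (1.32), Folr2 (0.92) and Adgre1 (0.90), named after their values were seen. Differences at 12 h were 0.11 for both Ccr2 and Cx3cr1, the chemokine receptors that mark the main monocyte subsets, and 0.37 for Lyve1, a mark of resident heart macrophages described in mice, and none passed the test. Without SAP 12 h replicate 3 the 12 h count was 5 of 30, with Folr2 at 0.71, Adgre1 at 0.69 and C1qc at 0.42 no longer called. Without the 4 atrium-rich arrays it was 4 of 30, with Folr2 at 0.78, Adgre1 at 0.64, Cd86 at 0.55 and C1qc at 0.44 no longer called. C1qc between the times was -0.72 without those arrays (adjusted p = 0.0507).

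Among 17 measured monocyte chemokines and receptors, 1 rose at 24 h against sham and 3 at 12 h, and none fell (medians 0.10 and 0.25). The shares of all probe sets that rose were 1.23% and 2.35%. Ccl6, a chemokine that attracts macrophages in mice, was 1.39 above sham at 24 h (adjusted p = 0.00331) and 1.72 above it at 12 h (adjusted p = 0.000372). Ccl6 read 11.89, 11.96, 11.80, 11.76 and 11.50 at 24 h, 12.70, 11, 12.78, 12.24 and 11.81 at 12 h, and 10.39, 10.53, 10.42, 10.23 and 10.37 in sham. Every heart with SAP was above every sham heart, unlike Cd14. Such separation upward from sham was found for 608 of 23188 probe sets at 24 h and for 542 at 12 h. Vcam1, an adhesion ligand of the vessel wall, was 1.27 above sham at 12 h (adjusted p = 0.00463) and Ccr1, a chemokine receptor, 0.65 (adjusted p = 0.0497), which was 0.63 and not called without the atrium-rich arrays (adjusted p = 0.117). Ccl2, the main monocyte attractant, differed by 0.86 at 12 h (adjusted p = 0.099).

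**Figure D3:**
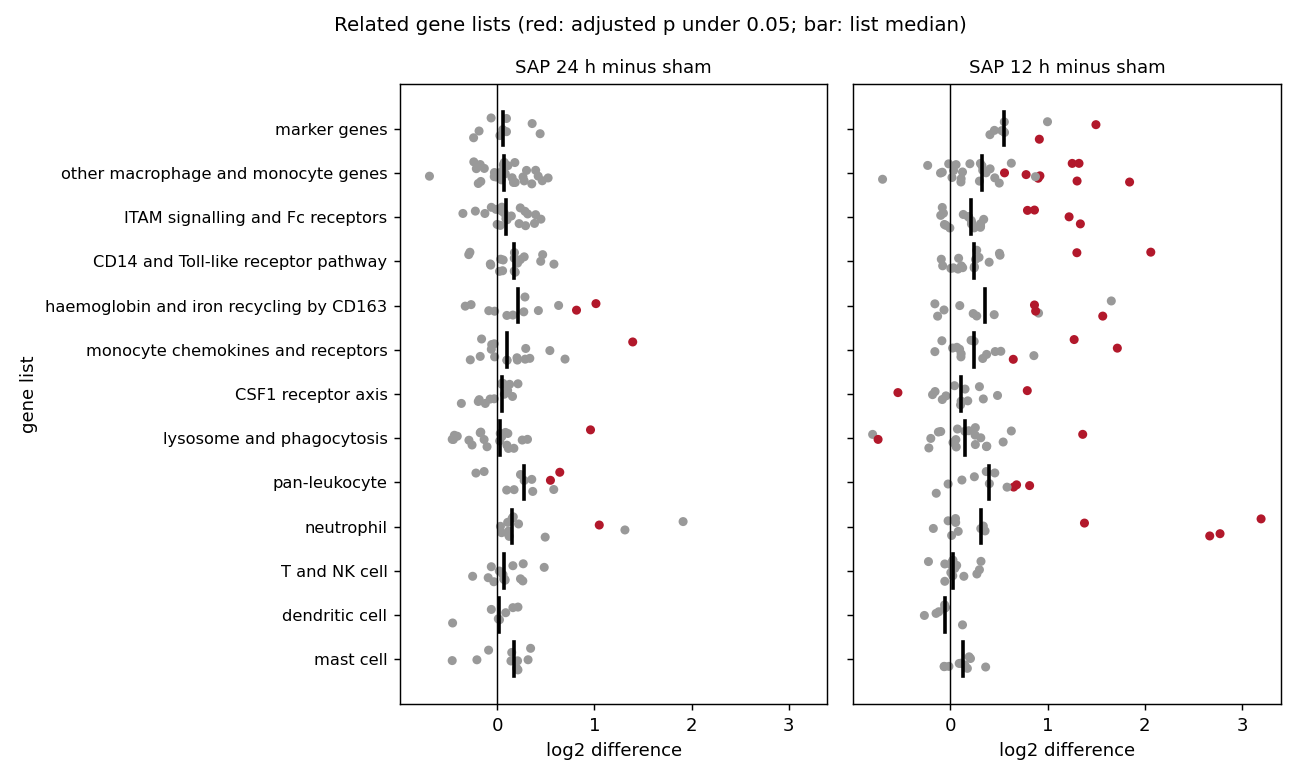
Log2 differences (horizontal axis) of the 9 genes and of the genes in related lists (rows) for SAP 24 h minus sham (left) and SAP 12 h minus sham (right); each point is a gene, red points passed adjusted p under 0.05 in limma, and the black bar marks each list's median. At 12 h the median of the 9 genes, 0.56, is to the right of that of the 30 other macrophage and monocyte genes, 0.33. The 9 genes and the lists were chosen with earlier results of these data known, so the medians are a description.

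Some markers of neutrophils and of leukocytes in general rose at 24 h or 12 h. Of 13 measured neutrophil genes, 1 rose at 24 h against sham, where 1.23% of all probe sets rose. Another count, at 12 h, was 4, where 2.35% of all probe sets rose, and none fell at either time. At 12 h these were S100a9 (3.20, adjusted p = 0.00227), S100a8 (2.67, adjusted p = 0.00204), Lcn2 (2.77, adjusted p = 0.00527) and Mmp8 (1.38, adjusted p = 0.000667), and at 24 h Mmp8 (1.05, adjusted p = 0.00852). S100a8 and S100a9 are calcium-binding proteins of neutrophils and monocytes, and Lcn2 is also made by stressed tissue cells. The mean of the 13 genes ran from 4.68 to 5.58 at 24 h, 4.96 to 5.60 at 12 h and 4.43 to 4.63 in sham. The defining neutrophil receptors Csf3r and Cxcr2 were near the background guide, with means of 3.66 and 5.04 at 12 h and 3.34 and 4.69 in sham, and neither passed the test. The part of neutrophils in the levels of Cd14, Fcer1g, Tyrobp and Lyz2 was not tested.

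Of 11 measured pan-leukocyte genes, 2 rose at 24 h against sham and 3 at 12 h, where 1.23% and 2.35% of all probe sets rose. Cd53, a tetraspanin of leukocytes, was 0.64 above sham at 24 h (adjusted p = 0.0419) and 0.82 above it at 12 h (adjusted p = 0.00674). Itgb2, the beta-2 integrin chain, was 0.55 above sham at 24 h (adjusted p = 0.048) and 0.65 above it at 12 h (adjusted p = 0.0131). Arhgdib was 0.68 above sham at 12 h (adjusted p = 0.0197). None of the 11 was called between the times. The summed level of the list, as its mean, ran from 8.44 to 8.92 at 24 h, 8.52 to 8.99 at 12 h and 8.27 to 8.52 in sham. Ptprc, which encodes CD45, differed by 0.40 at 12 h (95% interval 0.07 to 0.73, adjusted p = 0.188). Without the atrium-rich arrays no pan-leukocyte gene was called at either time, with Cd53 at 0.66 and Itgb2 at 0.43 at 24 h, and Cd53 at 0.69, Itgb2 at 0.44 and Arhgdib at 0.75 at 12 h. Of 14 T and NK cell genes, 7 dendritic cell genes and 10 mast cell genes none was called in any comparison, and Cd3e, a chain of the T cell receptor complex, lay between 3.13 and 3.90 in all hearts.

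The 9 genes did not vary as 1 block from heart to heart. Their mean level ran from 8.88 to 9.29 at 24 h, 9.23 to 10.36 at 12 h and 8.83 to 9.11 in sham. SAP 12 h replicate 3 was the highest of its group in 7 of the 9, all but Lyz2 and Aif1, and replicate 1 the lowest in 6, which were Csf1r, Fcer1g, Cd14, Cd163, Mrc1 and Aif1. After each gene was centred on its group means, the 36 gene pairs had a median Pearson correlation of 0.33 over the 15 arrays, between -0.21 and 0.83, given as a description because the points share arrays. The closest pair was Csf1r with Mrc1, at 0.83, and Csf1r with Cd163 followed at 0.79. Without SAP 12 h replicate 3 these were 0.57 and 0.53, the median was 0.17, and the closest pair was Cd163 with Cd68 at 0.75. Over all 15 arrays, SAP 12 h replicate 3 included, Tyrobp and Lyz2 were the least tied to the mean of the other 8, at 0.23 and 0.12. Fcer1g and Mrc1 were the most tied, at 0.78 each.

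Atrial expression moved with several of the 9 within groups. Against the mean of 6 atrial genes, the centred levels correlated at 0.76 for Cd163, 0.70 for Csf1r, 0.68 for Mrc1, 0.56 for Fcer1g and 0.52 for Cd68. The correlations were 0.39 for Cd14, 0.30 for Aif1, 0.09 for Tyrobp and -0.10 for Lyz2, all over 15 arrays and again as a description. SAP 12 h replicate 3 had the highest atrial score, 17.0, and the highest mean of the 9 genes, 10.36. In sham, the atrium-rich replicates 2 and 3 had means of 9.11 and 9.09, against 8.97, 9.05 and 8.83 in the others. The part of atrial tissue in the 12 h values was measured only by leaving the 4 arrays out and by the covariate, under which Cd14 stayed called at 12 h and between the times.

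**Figure D4:**
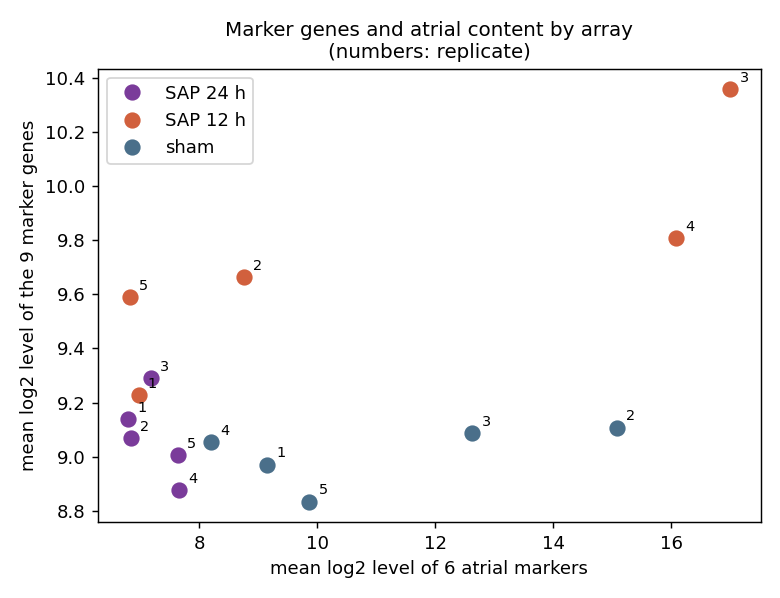
Mean log2 level of the 9 genes (vertical axis) against the mean log2 level of 6 atrial genes (horizontal axis) in each of the 15 hearts, coloured by group. SAP 12 h replicate 3, at an atrial score of 17.0, has the highest mean of the 9 genes, 10.36, while the 12 h hearts with low atrial scores are also above the sham hearts.

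Of 15028 other named genes, those whose group-centred levels followed the mean of the 9 most closely over the 15 arrays were Cndp1 (r = 0.95), Cpa3 (0.94), Slc44a1 (0.92), Colec12 (0.90) and Gcc2 (0.89), while the median over all of them was -0.02. Cpa3 encodes carboxypeptidase A3 of mast cells, Slc44a1 a choline transporter, Colec12 a scavenger collectin, Gcc2 a Golgi tether and Cndp1 carnosinase. Cpa3 read 7.36, 7.13, 7.55, 6.87 and 7.30 at 24 h, 6.07, 6.97, 9.04, 7.52 and 7.42 at 12 h, and 7.10, 7.43, 7.46, 7.12 and 6.09 in sham. SAP 12 h replicate 3 was its highest heart too, and replicate 1 its lowest. Cndp1, at a mean of 3.62, was below the median of the background guide. Without SAP 12 h replicate 3 the 5 correlations fell to between 0.81 and 0.88, and of these only Slc44a1 was still among the top 5, which were led by Prkcb (0.92).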

How the data were processed

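RNA from 15 rat hearts, 5 per group, was measured on arrays. Groups were taken from sample titles and source names. The series title and an extraction note speak of ischemia/reperfusion and mice, and the design text of a mouse array; sample-level fields were followed. The authors deposited log2 expression values per transcript cluster, normalized over all arrays (Affymetrix Expression Console per the submitters' processing notes, version not given in the sources used here; RMA by the table's name), from 2.51 to 19.83; the log2 scale rests on that name. A second deposited table was identical. Gene symbols came from GEO's platform annotation, with 8139 probe sets unnamed here.

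limma 3.58.1 (lmFit, eBayes; R 4.3.3) was run on the 3 group means of the 15 arrays, without a filter, and p was adjusted over 23188 probe sets by the Benjamini-Hochberg method. The number of arrays limits the precision (median standard error 0.15). The members and lists (20 others, 249 of 286 genes measured) were chosen with earlier results of these data known. Named genes are all 9 members, up to 4 of each list with the smallest adjusted p among those called per comparison, defining genes of cell types and the 5 nearest in pattern; other list genes were named after their values were seen. Alternatives were median centring, repeated quantile normalization, leaving out the lowest 25% of probe sets, trend and robust eBayes, array weights, the compared groups only, a replicate block, an atrial covariate, leaving out the 4 atrium-rich arrays, averaging probe sets and leaving out each array; list counts and correlations without some arrays or with the covariate were added after seeing the data. The fit was tested on simulated data.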

Additional observations from a re-analysis of the deposited data

Results flagged for a closer look

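Cd14 and Cd68 differed between the SAP time points by limma's contrast of the times: Cd14 by -1.56 at 24 h minus 12 h and Cd68 by -0.742, on the log2 scale. Cd14 was called under every alternative tried, at 24 h minus 12 h and at 12 h minus sham. Sham replicate 1 stood apart from its group in Cd68, at 6.78 against 7.05 to 7.10 in the other 4 sham hearts. It was 1 of 27 sets of 5 values examined, and chance sets about 1 in 20 apart in this way.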

How the results depend on the processing

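Counts of the 9 genes called, 2 higher at 12 h against sham and 2 lower at 24 h against 12 h with all arrays, changed as follows. Higher at 12 h: 5 with the replicate number as a block, 4 with the atrial covariate and 1 without the atrium-rich arrays (fewer arrays remain), and 2 to 4 when 1 array was left out. Without the lowest 25% of probe sets Cd163 was called at 12 h in addition to Cd14 and Fcer1g. Lower at 24 h against 12 h: 1 with median centring, repeated quantile normalization, array weights, the compared groups only, the atrial covariate or no atrium-rich arrays, and 1 to 2 when 1 array was left out. The lost call was Cd68, also without any 1 of sham replicates 2 to 5, SAP 12 h replicates 2 to 4 or SAP 24 h replicates 1, 2, 4 and 5. Whether the replicate numbers mark a shared litter or day is not stated. After centring on group means, same-numbered arrays correlated between -0.24 and 0.33, which does not decide it. The count at 24 h against sham was 0 throughout.

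Of 225 values per comparison, 1 turned direction at 12 h against sham, 9 between the times and 16 at 24 h against sham, none of them called; the cause was not tested. At 12 h minus sham, Csf1r was -0.04 without the atrium-rich arrays. Between the times, Csf1r was 0.074 with the covariate and 0.15 without those arrays, and Lyz2 0.066 with quantile normalization, 0.024 with array weights and -0.16 to 0.082 without 1 array. At 24 h minus sham, Cd14 was 0.12 with the covariate and 0.056 without the atrium-rich arrays, Mrc1 0.14 with the covariate and Tyrobp -0.013 without the atrium-rich arrays. Without 1 array the 24 h minus sham values ran from -0.22 to 0.096 for Cd14, -0.0065 to 0.21 for Tyrobp, -0.11 to 0.15 for Cd163 and -0.11 to 0.21 for Aif1.

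Over all probe sets at 24 h minus sham, 286 were higher and 496 lower, against 510 and 753 with array weights, 497 and 733 with only the compared groups, 177 and 326 with the covariate, 146 and 354 without the atrium-rich arrays, and 160 to 400 and 257 to 601 without 1 array. At 12 h minus sham the 544 and 596 became 257 and 341 without the atrium-rich arrays. Between the times the 28 higher became 53 with quantile normalization and 47 with array weights, and the 28 and 132 became 13 and 62 with only the compared groups, 13 and 70 with the covariate, 13 and 72 without the atrium-rich arrays, and 9 to 130 and 64 to 268 without 1 array, the top of both ranges without SAP 12 h replicate 2.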

Other observations

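Of 5 measured B cell genes 1 fell at 24 h against sham and 2 at 12 h, where 2.14% and 2.57% of all probe sets fell. Fcer2, the low-affinity IgE receptor, fell by 2.62 at 24 h (means 4.59 and 7.21, adjusted p = 0.000434) and at 12 h it fell by 2.66 (means 4.54 and 7.21, adjusted p = 0.000221). Blnk, a B cell adaptor, fell by 0.97 at 12 h (adjusted p = 0.00464). Of 9 measured endothelial genes 2 rose at 12 h, where 2.35% of all probe sets rose, and none was called at 24 h. Vwf, von Willebrand factor, rose by 1.11 (adjusted p = 0.0135) and Emcn, endomucin, by 0.42 (adjusted p = 0.0354), and without the atrium-rich arrays they were 0.82 (0.161) and 0.54 (0.0568), no longer called.

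The 9 measured fibroblast genes had a median of -1.03 at 24 h and -0.73 at 12 h against sham. With the atrial covariate these medians were -0.50 and -0.75. Without the atrium-rich arrays they were -0.59 and -0.77. Against these medians, Tcf21, a transcription factor of cardiac fibroblasts, rose at 12 h by 0.86 (adjusted p = 0.0133). It fell by 0.96 at 24 h against 12 h (adjusted p = 0.0263). Without the atrium-rich arrays the 12 h difference of Tcf21 was 0.50 (adjusted p = 0.372) and that between the times -0.75 (adjusted p = 0.181), which was -0.84 with the atrial covariate (adjusted p = 0.124). Col1a2, a chain of type I collagen, was 10.95 at 24 h and 12.06 in sham (difference -1.11, adjusted p = 0.0379), and with the atrial covariate the difference was -0.63 and not called (adjusted p = 0.149). All adjusted p-values are from limma over all probe sets.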
